A study of Mus musculus with 23 samples.

Results

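The genes described here are 90 of the 13572 rows of the count table: 34 named genes of the cell cycle and 56 rows with the name of a replication histone. The named genes were taken as 12 of S phase, 18 of G2 and mitosis (G2/M) and 4 of chromatin and microtubules, and the histones were all symbols that begin with Hist, a cluster number and class h1, h2a, h2b, h3 or h4. Of the 56, GENCODE M21 lists Hist1h2aj and Hist1h2al as pseudogenes, and these 2 had 1 count over the control mice and 22 over the PGE2-deficient mice. RNA was measured in type 1 conventional dendritic cells (cDC1), the dendritic cells that take up tumour material and present it to CD8 T cells, sorted from melanomas. All mice were wild-type C57BL/6 animals given a subcutaneous BRAFV600E melanoma and analysed on day 6. The control group of 4 mice carried the unmodified, PGE2-producing line, and the other 4 mice carried the same melanoma without Ptgs1 and Ptgs2, the cyclooxygenase genes needed to make prostaglandin E2. The latter tumours are called PGE2-deficient below. Host cells in them, the sorted dendritic cells included, kept both genes, so their RNA does not check the deletion (Ptgs2 had 4 counts over the control mice and 14 over the PGE2-deficient ones). Cells were live and CD45+, MHC-II+, CD11c+ and CD103+ but CD11b-, and were sequenced by Smart-seq3 as pools of 10, with 12 control pools and 11 pools from PGE2-deficient tumours.

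Pools held 25571 to 98554 counts (median 49506) and mice, as the sum of their pools, 101017 to 230478. The defining markers of cDC1 were present in every pool, at 86 to 489 counts over 13 genes. Clec9a was at 172 ± 58.1 CPM (scaled counts, defined at the end of the paragraph) in control mice and 217 ± 62.5 in PGE2-deficient mice (mean ± SD, n = 4 mice each). Xcr1 was at 73.3 ± 46.5 and 318 ± 59.1 CPM, and 5 of the 12 tested cDC1 markers rose, against 2.7% of all tested genes (test described below). RNA of other cells was present too. In control mouse 4 pool 1 the macrophage and monocyte markers had 269 counts against 209 of cDC1 markers, and in control mouse 2 pool 2 152 against 153, while the other pools had 12 to 48 macrophage and monocyte marker counts. Counts summed over control and over PGE2-deficient pools were 22 and 94 for T and NK cell markers, 630 and 287 for macrophage and monocyte markers, 321 and 172 for pDC markers, 162 and 64 for cDC2 markers, 21 and 41 for B and plasma cell markers, 21 and 13 for stroma markers, and 9 and 1 for melanoma markers. Neutrophil markers had no row with a count. Within these lists the most counts belonged to Lyz2 and Cd68, Bst2 and Tcf4 (the only one called, with a log2 fold change of -2.08), Cd209a and Sirpa, Ighm and Igkc, Pecam1 and Kdr, and Dct and Pmel. Without Lyz2, Cd68, Csf1r, Bst2, Tcf4, Runx2, Cd2 and Il2rb, the T, NK, macrophage, monocyte and pDC markers together had 425 and 175 counts. How much of each sum came from cDC1 themselves was not tested. CPM are counts relative to TMM-scaled totals of the tested genes (TMM corrects for differences in RNA composition), and they compare mice for 1 gene, not genes with each other.

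A dividing cell duplicates its DNA in S phase, when the MCM helicase opens the double strand, PCNA holds the polymerases on it and ribonucleotide reductase supplies nucleotides. Replication histones are made at the same time to package the new DNA, from clustered genes without introns whose mRNA mostly ends in a stem-loop in place of a poly(A) tail. Genes of G2 and mitosis are switched on later and carry CCAAT boxes and cell cycle homology elements in their promoters, and they untangle, condense and separate the chromosomes. Dendritic cells of tissues descend from circulating precursors that divide, and some go on dividing after they have entered the tissue.

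The promoters of the G2/M and histone genes whose RNA rose are printed as the 250 bases before the RefSeq start (GRCm38.p6), because they hold letters that the choice of members did not use and that are frequent in these groups. Capitals mark CCAAT and TTTGAA (the CHR) on either strand, so that ATTGG and TTCAAA are the same motifs on the other strand, and TTCGAA, which reads the same on both strands. The Top2a window is chr11:99024190-99024439, the Cks1b window chr3:89418292-89418541 and the Hmgb2 window chr8:57511593-57511842, on the minus, minus and plus strand. The Hist1h2ao window is chr13:21810117-21810366 on the plus strand and the Hist1h2ap window chr13:21833476-21833725 on the minus strand. These RefSeq starts, except that of Top2a, differ from those of GENCODE M21. The Hist1h2ao and Hmgb2 windows end upstream of their GENCODE starts (21810465 and 57511907). The Hist1h2ap and Cks1b windows reach into the GENCODE genes (starts 21833507 and 89418383).
Top2a: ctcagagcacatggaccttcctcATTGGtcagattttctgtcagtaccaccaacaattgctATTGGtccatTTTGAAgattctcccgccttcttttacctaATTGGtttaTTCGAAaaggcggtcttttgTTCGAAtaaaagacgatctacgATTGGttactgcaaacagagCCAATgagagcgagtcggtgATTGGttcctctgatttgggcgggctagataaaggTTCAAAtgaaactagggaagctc
Cks1b: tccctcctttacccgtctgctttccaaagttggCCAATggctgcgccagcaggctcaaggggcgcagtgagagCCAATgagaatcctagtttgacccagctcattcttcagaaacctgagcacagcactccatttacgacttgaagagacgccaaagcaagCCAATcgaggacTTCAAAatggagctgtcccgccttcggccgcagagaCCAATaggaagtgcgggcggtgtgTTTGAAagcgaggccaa
Hmgb2: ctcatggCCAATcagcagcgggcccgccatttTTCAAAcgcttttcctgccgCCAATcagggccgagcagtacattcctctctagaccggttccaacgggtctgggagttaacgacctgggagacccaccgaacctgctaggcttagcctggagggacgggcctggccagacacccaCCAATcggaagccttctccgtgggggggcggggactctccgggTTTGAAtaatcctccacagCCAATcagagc
Hist1h2ao: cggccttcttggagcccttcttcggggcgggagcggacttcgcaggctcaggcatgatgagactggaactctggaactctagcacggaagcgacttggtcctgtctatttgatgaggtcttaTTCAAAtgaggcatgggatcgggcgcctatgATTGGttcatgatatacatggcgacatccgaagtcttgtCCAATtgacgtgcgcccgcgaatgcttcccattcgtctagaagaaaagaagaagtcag
Hist1h2ap: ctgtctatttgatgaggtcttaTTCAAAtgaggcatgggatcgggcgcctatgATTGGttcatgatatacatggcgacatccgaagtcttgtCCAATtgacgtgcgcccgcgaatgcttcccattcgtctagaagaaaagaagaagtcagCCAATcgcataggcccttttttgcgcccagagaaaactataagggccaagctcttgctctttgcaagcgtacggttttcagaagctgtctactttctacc

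Top2a held 6 CCAAT motifs, 2 TTTGAA and 2 TTCGAA, and Cks1b and Hmgb2 each held 4 CCAAT and 2 TTTGAA. The tubulins Tubb5 and Tuba1b, whose RNA rose as well, are not printed. Tubb5 held 2 CCAAT and 0 TTTGAA, and Tuba1b had 0 of both. Of the 3 chromatin and microtubule genes found, 1 held CCAAT and 0 held TTTGAA. Among the 15 G2/M genes found in the promoter table, 13 (86.7%) held a CCAAT and 12 held 2 or more, against 37.5% and 11.5% of 27025 genes. CCAAT was frequent in S phase genes too, with 8 of 11 (72.7%) holding it and 5 holding 2 or more (45.5%). TTTGAA was in 10 of the 15 (66.7%) against 18.3% of all genes and 1 of 11 S phase genes. The S phase promoters held the E2F-like letters TTTGGCGC in 2 of 11 genes, against 0.485% of all genes, and none of the 15 G2/M or 49 histone promoters found had them. The related letters TTTCGCGC were in 2 of 11 S phase, 1 of 15 G2/M and 6 of 49 histone promoters (0.300% of all genes), and TTTCCCGC in 1 of 11, 0 of 15 and 1 of 49 (1.03% of all genes). Histone promoters held CCAAT in 41 of 49, TTTGAA in 24, the TATA letters TATAAA in 26 (14.3% of all genes) and the octamer ATTTGCAT in 12 (1.81% of all genes). Motifs were searched on both strands, and a match describes letters, not a bound site. Hist1h2ao and Hist1h2ap are near copies: where their windows overlap after a shift of 100 bases, all 150 bases are the same. The shift depends on the RefSeq starts used.

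In pools from PGE2-deficient tumours 3 G2/M genes (Top2a, Cks1b and Hmgb2), 2 tubulins and 2 near-identical histone H2A genes rose, and no S phase gene passed the test. Of the 90 members 13 had enough counts for the test across all genes (edgeR quasi-likelihood test on 2076 genes, 4 mice against 4, Benjamini-Hochberg adjusted p under 0.05). Of these 13, 7 rose and 0 fell, where 2.7% of all tested genes rose, 2.26% fell and 4.96% did either. At an unadjusted p under 0.05, 10 members were higher and 0 lower, where 9.63% of all tested genes were higher. DESeq2 called 6 higher (2.41% of all tested genes) and limma-voom 4 (2.99%), and both called 0 lower. All 4 PGE2-deficient mice lay above all 4 control mice for 8 of the 13, which was so for 4.91% of all tested genes. The median log2 fold change was 1.31 over the 13 tested members and 0.01 over all tested genes. Top2a and Cks1b passed the count filter through the PGE2-deficient mice alone. Hist1h2ao, Hist1h2ap, Smc4, Stmn1 and Mcm4 also needed the PGE2-deficient mice to pass it, since too few control mice had enough counts. The counts and the median over the tested members are therefore a description of these genes only. Top2a and Cks1b were also called when all genes with a count were tested. The other members are described by their counts.

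The groups were first compared as sums over their members, tested or not. The 18 G2/M genes together stood at 955, 516, 713 and 580.2 CPM in control mice 1 to 4 and at 2232, 2147, 2056 and 1791 CPM in PGE2-deficient mice 1 to 4. The groups did not overlap, and the means were 691 ± 194 and 2057 ± 191 CPM (SD, n = 4 each), a ratio of 2.98. In mouse 4 this rested on pool 2 with 3819 CPM, since its other pools stood at 478 and 502 CPM, below the lowest control mouse. The 12 S phase genes together stood at 759, 456, 883 and 761 CPM in the control mice and at 468, 368, 1102 and 1139 CPM in the others. Those ranges overlapped: PGE2-deficient mice 1 and 2 were near or below the lowest control mouse and mice 3 and 4 above the highest, and the ratio of the means (715 ± 182 and 769 ± 408 CPM) was 1.08. This depended on the pools used. In 1 alternative, chosen after seeing the data, the 13 pools that held 10 or more marker counts of other cells (markers listed below) were left out. The log2 ratio of the S phase means was then 1.08 in place of 0.11, and that of the G2/M means 1.65 in place of 1.57. No pool was left of PGE2-deficient mouse 2, the mouse with the lowest S phase sum. Of control mice 2, 3 and 4 only pools 3, 2 and 3 were left. The chromatin and microtubule genes summed to 1116, 654, 682 and 1019 CPM against 1939, 2206, 2051 and 1255 CPM, without overlap and with a ratio of 2.15. The 56 histone genes summed to 713, 309.7, 632 and 376 CPM in the control mice and 4317, 878, 1592 and 867 CPM in the others. Here too the groups did not overlap, but the PGE2-deficient mice spread widely, with means of 508 ± 195 and 1913 ± 1638 CPM and a ratio of 3.77. Without PGE2-deficient mouse 1 the ratio was 2.19. These sums were not tested. In pools of 10 cells, more dividing cells and more RNA of these genes in each cell cannot be told apart.

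**Figure D1:**
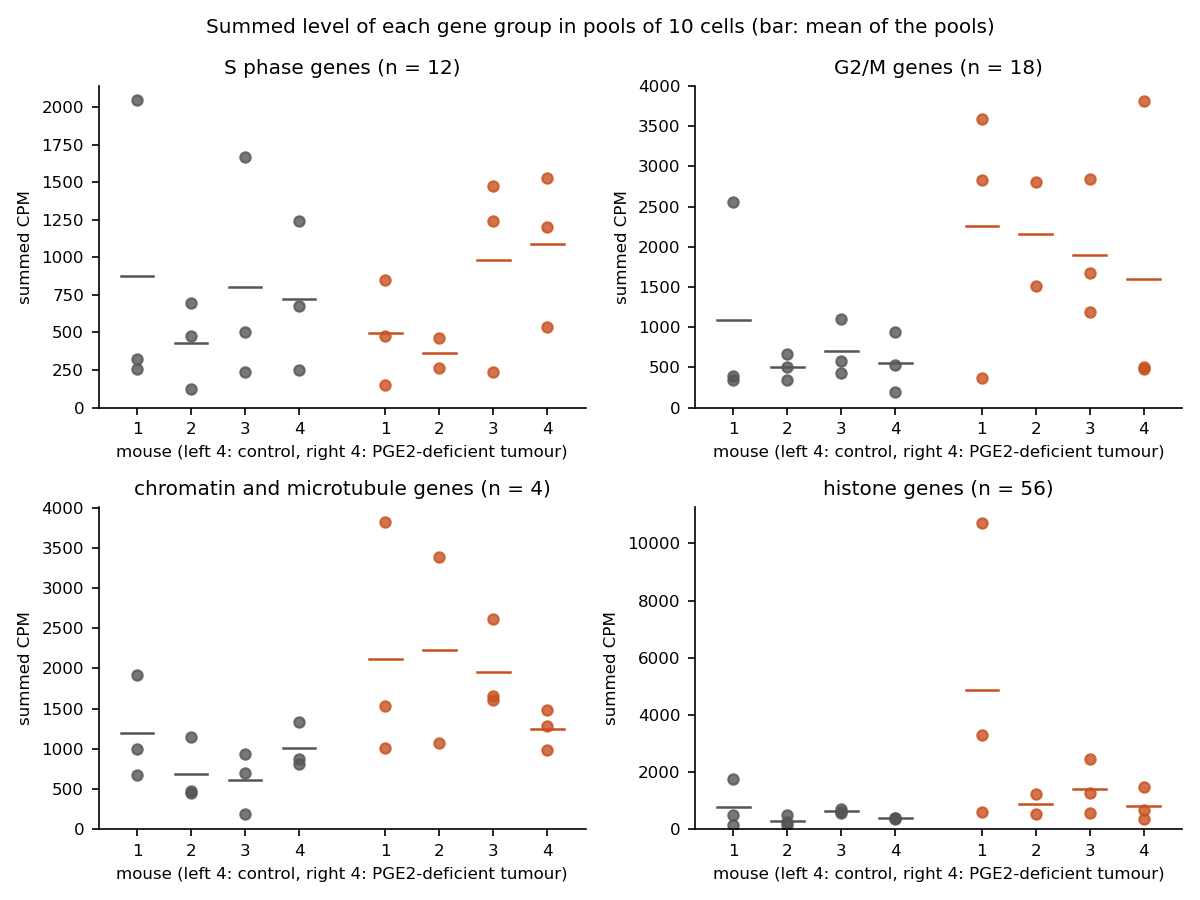
Summed CPM (y axis) of the 12 S phase, 18 G2/M, 4 chromatin and microtubule and 56 histone genes in each pool of 10 cells, by mouse (x axis, grey control, orange PGE2-deficient), with a bar at the mean of a mouse's pools. For G2/M genes 5 of 11 PGE2-deficient pools lie above the highest control pool, for S phase genes 0.

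The balance between G2/M and S phase genes was also compared within each mouse. Counts of G2/M genes divided by counts of S phase genes gave 1.26, 1.13, 0.807 and 0.763 in control mice 1 to 4. The same ratio was 4.77, 5.84, 1.87 and 1.57 in PGE2-deficient mice 1 to 4. With all pools, every PGE2-deficient mouse was above every control mouse, and PGE2-deficient mice 1 and 2, whose S phase levels were the lower ones of their group, had the highest ratios. For mouse 4 this rested on pool 2: without it the ratio was 0.444, below every control mouse. The pools overlapped, at 0.661 to 2.75 in the control group (median 1.01) and 0.312 to 10.5 in the PGE2-deficient group (median 3.18). As a ratio of 2 sums from the same libraries it does not depend on the scaling of the libraries, and neither it nor the difference between G2/M and S phase genes was tested.

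Among the G2/M genes, Top2a encodes topoisomerase II alpha, which untangles replicated DNA, and lies at chr11:98992943-99024189 (GRCm38, minus strand). Its level was 92.0, 34.4, 40.1 and 31.4 CPM in control mice 1 to 4 and 322, 130.5, 250.0 and 198 CPM in PGE2-deficient mice 1 to 4. The lowest PGE2-deficient mouse was above the highest control mouse, which was mouse 1 and stood well apart from the other control mice. Top2a rose with a log2 fold change of 2.25 ± 0.40 (SE, adjusted p = 0.00245). With limma-voom over libraries Top2a was not called. Cks1b (chr3:89415472-89418383, minus strand) encodes a small subunit of cyclin-dependent kinases that is also needed to degrade the inhibitor p27. It stood at 23.0, 8.60, 40.1 and 7.84 CPM in the control mice and 127, 142, 143 and 90.8 CPM in the others. The groups were far apart, although the control values rest on 8 counts in all, and the log2 fold change was 2.68 ± 0.48 (adjusted p = 0.00242). Cks1b was called in each of the 8 fits that left out 1 mouse and in all 12 of the other alternatives in which it had enough counts to be tested. In the rest of the 20 other alternatives it had too few counts. Where a count filter was used, being tested already required a high level in the PGE2-deficient mice, so these calls are no separate support.

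Hmgb2, a DNA-bending chromatin protein that peaks late in the cycle (chr8:57511907-57515999, plus strand), had the most counts of the G2/M genes. It stood at 311, 129, 281 and 109.8 CPM in the control mice and at 536, 724, 495 and 611 CPM in the others. The 2 control mice with the higher levels, 1 and 3, still lay below all PGE2-deficient mice, and Hmgb2 rose by 1.54 ± 0.29 on the log2 scale (adjusted p = 0.00391). Smc4, a subunit of the condensin that compacts chromosomes, stood at 161, 103, 80.3 and 94.1 CPM and 214, 237, 209 and 189.9 CPM. The groups did not overlap, but the difference of 0.96 ± 0.30 did not pass the adjustment (adjusted p = 0.0621).

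Of the 14 G2/M genes below the count filter 13 had a higher mean CPM in the PGE2-deficient group (92.9%), which was so for 53.3% of all untested rows with a count. The exception was Cenpa, the centromeric histone H3 variant, with 33 counts over the control mice and 30 over the PGE2-deficient mice. Mki67, the antigen of dividing cells named Ki-67, had 3, 7, 7 and 4 counts in control mice 1 to 4 and 10, 22, 20 and 8 in PGE2-deficient mice 1 to 4. Birc5, or survivin, a subunit of the complex that corrects chromosome attachment in mitosis, had 4, 0, 3 and 0 counts and 14, 5, 25 and 14 counts. Both were seen in more pools of the PGE2-deficient group, Mki67 in 9 of 11 against 7 of 12 and Birc5 in 8 of 11 against 2 of 12. Cks2, the close relative of Cks1b, had 1, 3, 3 and 15 counts and 9, 5, 17 and 13 counts, and its highest control mouse overlapped the other group. Ccnb2, a mitotic cyclin, had 0 counts in all 4 control mice and 4, 6, 5 and 2 counts in the PGE2-deficient mice. Set against 3 counts over the control group, which a count of 0 allows, it was 4.84-fold higher. This ratio leaves out the error of its own 17 counts and the spread between mice.

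Lower count filters brought more of these genes into the test. With a minimum count of 3, 30 members were tested and 9 rose, Birc5 (2.64 ± 0.62, adjusted p = 0.0145) and the spindle assembly factor Tpx2 (3.73 ± 0.95, adjusted p = 0.0277) in addition, where 1.26% of all genes tested in that fit rose. Birc5 and Tpx2 needed the PGE2-deficient mice to pass this filter, since too few control mice had enough counts. The calls at this filter are therefore a description of these genes only. With no filter 87 were tested and 13 rose, against 0.826% of all genes. The further ones were Ccnb2, Ube2c, the ubiquitin-conjugating enzyme of the anaphase-promoting complex, Stmn1 and Hist1h2an. S phase genes gave 0 calls in both fits.

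The tubulins Tubb5 and Tuba1b, which form microtubules and are not restricted to dividing cells, rose as well. Tubb5 stood at 403, 241, 221 and 196 CPM in control mice 1 to 4 and 799, 664, 704 and 421 CPM in PGE2-deficient mice 1 to 4. The lowest PGE2-deficient mouse, mouse 4, was just above the highest control mouse, and the log2 fold change was 1.31 ± 0.26 (adjusted p = 0.00469). Tuba1b stood at 437, 301, 291 and 659 CPM and 741, 937, 883 and 660.4 CPM. The groups nearly touched at control mouse 4 and PGE2-deficient mouse 4, and the log2 fold change was 0.92 ± 0.24 (adjusted p = 0.0354). It was called in only 3 of the 8 fits without 1 mouse, with adjusted p up to 0.115. Stmn1, which destabilises microtubules, stood at 115, 0, 20.1 and 47.0 CPM and 156, 178, 194 and 66.0 CPM. Control mouse 2 had no count, the groups overlapped, and the difference of 1.79 ± 0.56 did not pass (adjusted p = 0.0686). Hmgn2, a nucleosome-binding protein, stood at 161, 112, 151 and 118 CPM and 244, 427, 270.4 and 107 CPM, with PGE2-deficient mouse 4 below all control mice (log2 difference 0.94 ± 0.34, adjusted p = 0.126).

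None of the 3 tested S phase genes passed the test. Pcna, the sliding clamp of the DNA polymerases, stood at 207, 112, 231 and 267 CPM in control mice 1 to 4 and 136, 107, 179 and 215 CPM in PGE2-deficient mice 1 to 4. The groups overlapped almost wholly, with a log2 difference of -0.32 ± 0.31 (adjusted p = 0.627). Mcm6, a subunit of the replicative helicase, stood at 104, 94.6, 181 and 94.1 CPM and 29.2, 35.6, 133 and 223 CPM, and Mcm4, another subunit, at 46.0, 103, 90.3 and 70.6 CPM and 19.5, 35.6, 91.8 and 124 CPM. For both, PGE2-deficient mice 1 and 2 were below all control mice and mouse 4 was above them, so that the means were close (log2 differences -0.07 ± 0.48 and -0.11 ± 0.46, adjusted p = 0.951 and 0.924). At an unadjusted p under 0.05 there was also no S phase gene in either direction, and neither DESeq2 nor limma-voom called one.

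The 9 other S phase genes had few counts, and 8 of them had the higher mean in the PGE2-deficient group (88.9%), with most of the counts in mice 3 and 4. For all untested rows with a count the share was 53.3%. Mcm7 had 10, 1, 6 and 4 counts in the control mice and 6, 3, 27 and 9 in the others. Rrm1, the large subunit of ribonucleotide reductase, had 6, 1, 5 and 7 and 9, 3, 25 and 9, and Mcm3 2, 5, 4 and 7 and 3, 1, 14 and 13. PGE2-deficient mouse 3 was also the most deeply sequenced mouse.

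Replication histones are represented above all by Hist1h2ap and Hist1h2ao, 2 genes for the core histone H2A on chromosome 13 (chr13:21833026-21833507, minus strand, and chr13:21810465-21810944, plus strand). Hist1h2ap stood at 161, 43.0, 151 and 47.0 CPM in control mice 1 to 4 and 1218, 214, 489.9 and 182 CPM in PGE2-deficient mice 1 to 4. Hist1h2ao stood at 127, 34.4, 110.4 and 39.2 CPM and 1325, 154, 449 and 140.3 CPM. In both, mouse 1 was far above the others, PGE2-deficient mice 2 and 4 lay only just above the highest control mouse, and the groups did not overlap. Both rose, Hist1h2ap by 2.44 ± 0.53 and Hist1h2ao by 2.79 ± 0.61 on the log2 scale (adjusted p = 0.0109 for each). The calls depended on the test: with robust dispersion the adjusted p was 0.175 and 0.188, with limma-voom 0.0574 and 0.0567, and DESeq2 gave Hist1h2ap 0.0535.

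These 2 genes count as 1 observation. Their coding parts of 393 bases did not differ at any base, and 93.5% of the 50-base words of Hist1h2ao occur in Hist1h2ap, so reads can be split between them by the counting. Across the histone members a median of 49.4% of 50-base words occurs in another gene, and for 7 members more than 90%. Counts of single histone genes are therefore uncertain and their sum less so. Of the 56 histones 49 lie on chromosome 13, 4 on chromosome 3, 2 on chromosome 11 and 1 on chromosome 6.

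Without Hist1h2ao and Hist1h2ap, the other 54 histone genes still summed to 426, 232, 371 and 290.1 CPM in the control mice and 1774, 510.1, 653 and 545 CPM in the PGE2-deficient mice. The groups did not overlap and the ratio of the means was 2.64, or 1.73 without PGE2-deficient mouse 1. By class, the ratio of means was 1.68 for linker histone H1, 5.50 for H2A, 1.98 for H2B, 4.06 for H3 and 2.15 for H4. The H2B genes had the most even levels, at 51.0 ± 7.65 and 101 ± 12.1 CPM, whereas H3 and H2A leaned on PGE2-deficient mouse 1 with 409 and 3284 CPM. Without that mouse the ratio was 1.67 for H3 and 2.86 for H2A. Of the 51 histones with a count that were not tested 42 had the higher mean in the PGE2-deficient group (82.4%), where 53.3% of all untested rows with a count did. Of the 51, 16 had no count in the control group and 2 none in the PGE2-deficient group, against 8.10% and 5.95% of all untested rows with a count. Hist1h1c and Hist1h1e, 2 linker histones, had 10, 4, 7 and 10 and 1, 4, 6 and 3 counts in the control mice and 6, 10, 13 and 9 and 19, 7, 8 and 2 in the others. Hist1h4d, for histone H4, had 2, 2, 3 and 6 and 12, 3, 8 and 5 counts. Hist1h3f, for histone H3, had 0 counts in control mice and 13 in PGE2-deficient mice, all in 2 of 4. Set against 3 counts in the control group this is 3.70-fold higher, a ratio without the error of the 13 counts or the spread between mice.

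The stem-loop at the end of histone mRNAs was looked for as GGCTCTTTT, any base, then AGAGCC in the GENCODE M21 transcripts. It was found in 28 of the 56 histones and in 0.160% of 21901 protein-coding genes. Hist1h2ao and Hist1h2ap both carry it in this form, printed because it is the feature that sets these mRNAs apart.
Hist1h2ao: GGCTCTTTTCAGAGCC
Hist1h2ap: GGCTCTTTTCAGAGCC

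Histones with the stem-loop had 162 counts in control mice and 753 in PGE2-deficient mice, and those without it in their annotated transcripts 47 and 181. Both sets were thus higher in the PGE2-deficient group. They are not 2 kinds of mRNA, since the split depends on the pattern and on the annotated ends. No H4 gene matched, and the Hist1h2an transcript has 393 bases, the coding length of Hist1h2ao. Smart-seq3 primes on poly(A), and what part of the histone mRNA it caught was not measured, so these levels compare groups but do not give histone amounts.

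**Figure D2:**
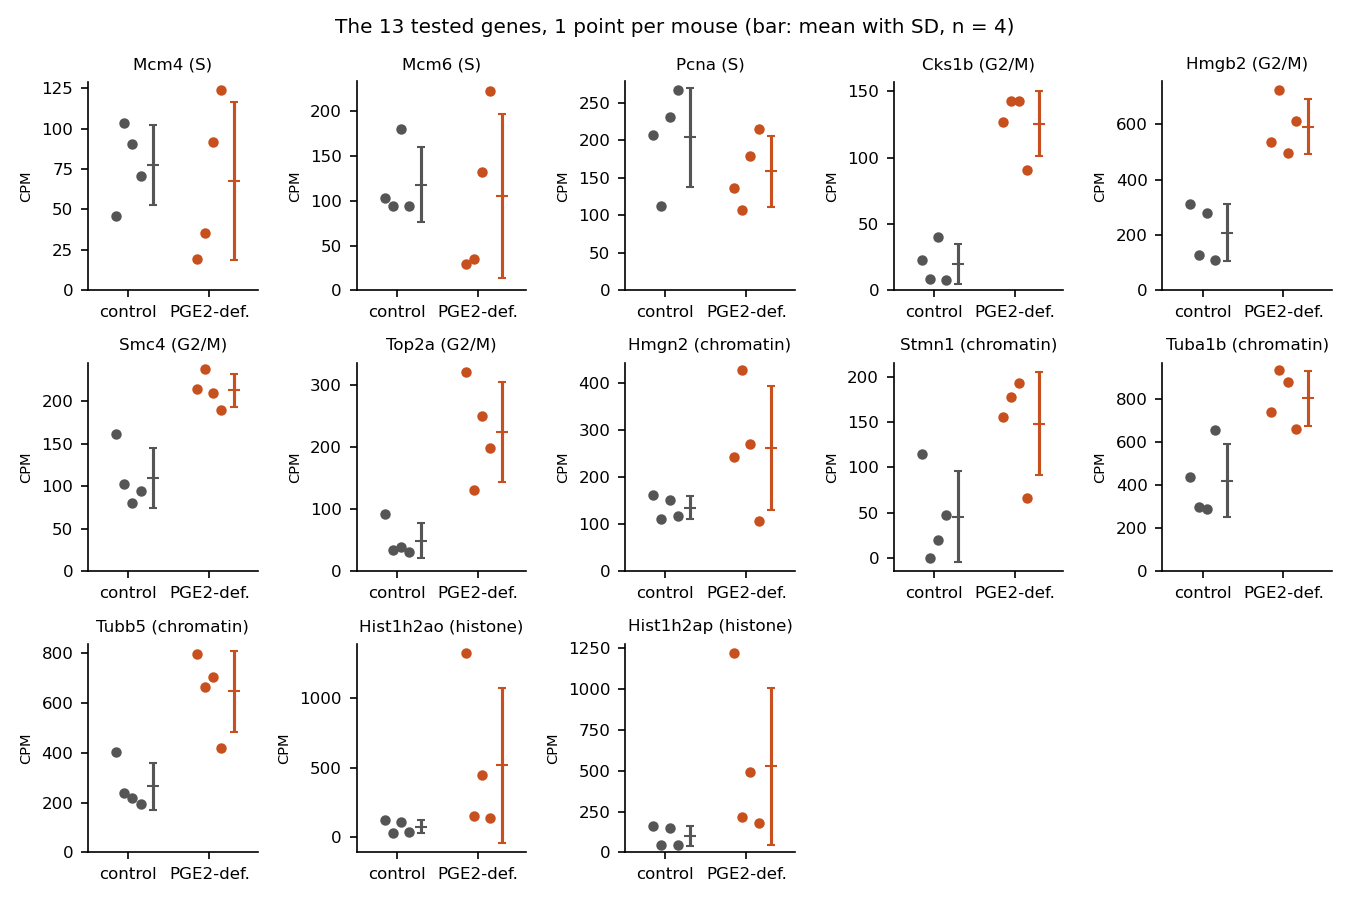
Level of each of the 13 tested genes in CPM (y axis, linear, a separate scale per gene) with 1 point per mouse and a bar for mean and SD (n = 4) of the control (grey) and PGE2-deficient (orange) mice. The groups are apart for Cks1b, Hmgb2, Smc4, Top2a, Tuba1b, Tubb5, Hist1h2ao and Hist1h2ap and overlap for Mcm4, Mcm6, Pcna, Hmgn2 and Stmn1.

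The pools showed where in each mouse these counts came from. The G2/M genes summed to 195 to 2555 CPM in control pools (median 513) and 365 to 3819 CPM in PGE2-deficient pools (median 1671). Control mouse 1 pool 3 was the highest control pool for G2/M genes (2555 CPM), S phase genes (2044 CPM), histones (1746 CPM) and the chromatin and microtubule genes (1916 CPM), and the other control pools had at most 1101 CPM of G2/M genes. Above it for G2/M genes were 5 PGE2-deficient pools: mouse 1 pools 1 and 2, mouse 2 pool 3, mouse 3 pool 3 and mouse 4 pool 2. PGE2-deficient pools also included 3 with low values, mouse 1 pool 3 and mouse 4 pools 1 and 3, at 365 to 502 CPM, and the pools of mouse 4 alone ran from 478 to 3819 CPM. The histone counts were the most uneven, with 278 of the 934 counts of the PGE2-deficient group in mouse 1 pool 1 (10726 CPM), 202 in mouse 3 pool 3 and 145 in mouse 1 pool 2.

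**Figure D3:**
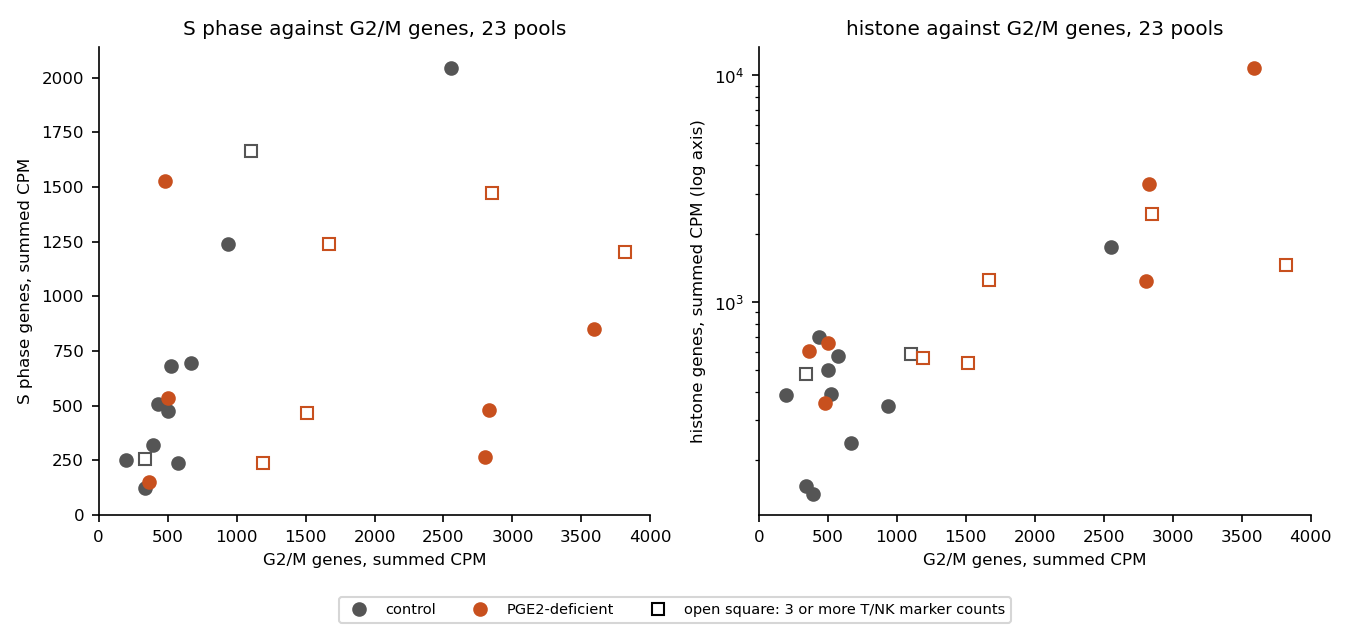
Each point is a pool of 10 cells, with the summed CPM of G2/M genes on the x axis against that of S phase genes (left, linear) and histone genes (right, log axis), grey for control and orange for PGE2-deficient, and open squares for pools with 3 or more counts of T and NK markers. The pools high in histones are also high in G2/M genes, whereas 4 PGE2-deficient pools have 1193 to 2827 CPM of G2/M genes with 239 to 479 CPM of S phase genes.

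Markers of T and NK cells moved with some of these pools. Of the 22 markers listed 16 had a row and 14 a count, Cd4 and Thy1 were at 0, and those with the most counts were Cd3d (5 in control mice and 18 in PGE2-deficient mice) and Gzmb (0 and 19). Summed per mouse they ranged from 15.7 to 161 CPM in the control group and from 0 to 297 in the other. Without Cd2 and Il2rb, which other cells share, PGE2-deficient mouse 4 pool 2 had 32 counts, mouse 3 pool 3 had 28 and mouse 2 pool 2 had 15, and control mouse 1 pool 2 had 13. The other 3 pools above all control pools in G2/M genes had 0, 0 and 1 (mouse 1 pools 1 and 2 and mouse 2 pool 3). PGE2-deficient mouse 1 had none of these counts in any of its pools, which allows up to 3, while its Top2a stood at 322 CPM and its Hist1h2ao at 1325 CPM, the highest of all mice.

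When the 7 pools with 3 or more such counts were left out (2 control pools and 5 PGE2-deficient pools, among them all pools of mouse 3), 10 members were tested and 1 rose, against 3.03% of all genes. That member was Hist1h2ao (2.92 ± 0.69, adjusted p = 0.0248). Fold changes of a similar size but with larger errors were left for Top2a (2.20 ± 0.68, adjusted p = 0.0906), Hmgb2 (1.50 ± 0.51, adjusted p = 0.126) and Tubb5 (1.36 ± 0.40, adjusted p = 0.0778). Smc4 did not keep its difference (0.19 ± 0.59, adjusted p = 0.909), and Cks1b had too few counts to be tested. At an unadjusted p under 0.05, 7 of the 10 were higher, where 10.5% of all genes in that fit were. A wider rule summed T, NK, macrophage, monocyte and pDC markers without Lyz2, Cd68, Csf1r, Bst2, Tcf4, Runx2, Cd2 and Il2rb. When instead the 13 pools with 10 or more of these counts were left out, 5 pools per group from 7 mice remained. In that fit 0 of 8 members were called with edgeR, against 1% of all genes. All 8 had a positive log2 fold change, and 2 were higher at an unadjusted p under 0.05, where 7.47% of all genes in that fit were. Beyond these values, the part of other cell types in the result was not tested.

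Single pools mattered too. Without PGE2-deficient mouse 4 pool 2, 4 of 10 tested members rose (2.3% of all genes): Top2a and Cks1b fell below the count filter and Hmgb2 had 1.29 ± 0.36, adjusted p = 0.0509. Without mouse 1 pool 1, the pool with the most histone counts, Hist1h2ao (2.07 ± 0.46, adjusted p = 0.0144) and Hist1h2ap (1.96 ± 0.44, adjusted p = 0.0149) still rose, as did Top2a, Hmgb2 and Tubb5, while Tuba1b had 0.86 ± 0.25, adjusted p = 0.0531. Without both of these and mouse 3 pool 3, 2 of 8 tested members rose, Tubb5 (1.07 ± 0.26, adjusted p = 0.0205) and Hist1h2ao (1.71 ± 0.48, adjusted p = 0.0465), against 3.29% of all genes. A fit over the 23 pools with the mouse as random effect (limma-voom) called 4 of the 13, against 2.99% of all genes.

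**Figure D4:**
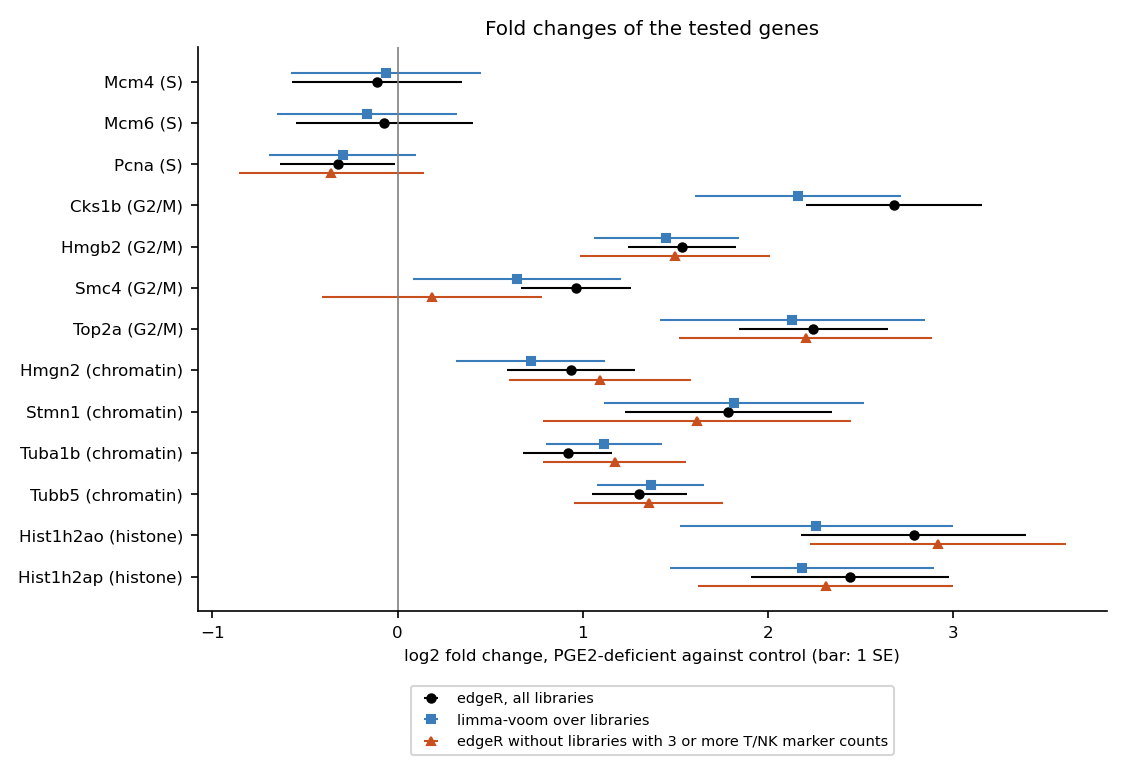
Log2 fold change of PGE2-deficient against control mice (x axis, bar 1 SE) for the 13 tested genes by edgeR on all libraries (black), limma-voom over libraries (blue) and edgeR without the pools holding 3 or more T and NK marker counts (orange, where the gene could be tested). The S phase genes lie about 0, and G2/M, microtubule and histone genes lie to the right in all 3, with Smc4 closest to 0 in the last.

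No other gene of the cell cycle lists passed the test, for which most had too few counts. Of 52 further G2/M genes with a row only 3 had enough counts, and edgeR called 0. These included Tmpo, a protein of the nuclear lamina (0.65 ± 0.26, adjusted p = 0.173), and Anp32e, a chaperone of H2A.Z (0.37 ± 0.30, adjusted p = 0.562). Of the 49 further G2/M genes that were not tested 48 had the higher mean in the PGE2-deficient group (98.0%), with 195 counts over the control mice and 683 over the others, and 9 had counts in PGE2-deficient mice alone. Among these 49, Kif23 and Racgap1, which together form the complex that bundles the central spindle before the cell divides, had 7 and 33 and 0 and 16 counts. None of 47 further S phase genes had enough counts, and 32 of them had the higher mean in the PGE2-deficient group (68.1%). For all untested rows with a count the share was 53.3%. Of 27 regulators of G1 7 were tested and 0 called, with a median log2 fold change of -0.20. Among them Ccnd1, a cyclin that drives entry into S phase, had 0.57 ± 0.31 (adjusted p = 0.344), and Cdkn1a, the inhibitor p21, had -0.62 ± 0.40 (adjusted p = 0.450). At an unadjusted p under 0.05, 1 of the 3 further G2/M genes and 0 of the 7 regulators differed, and DESeq2 and limma-voom called none.

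Replication-independent histones, which are made throughout the cycle from polyadenylated mRNA, gave a comparison for the histone genes. Of 6 tested 0 were called (1 at an unadjusted p under 0.05, none by DESeq2 or limma-voom), and the median log2 fold change was -0.11. H3f3a, for histone H3.3, had 1167 ± 52.9 CPM in control mice and 939 ± 49.7 in PGE2-deficient mice (-0.31 ± 0.15, adjusted p = 0.255), with all 4 PGE2-deficient mice below all 4 control mice, as for 5.73% of all tested genes. H2afj, an H2A variant, had -0.62 ± 0.34 (adjusted p = 0.353). Whether the 2 kinds of histone genes differ from each other in their response was not tested.

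**Figure D5:**
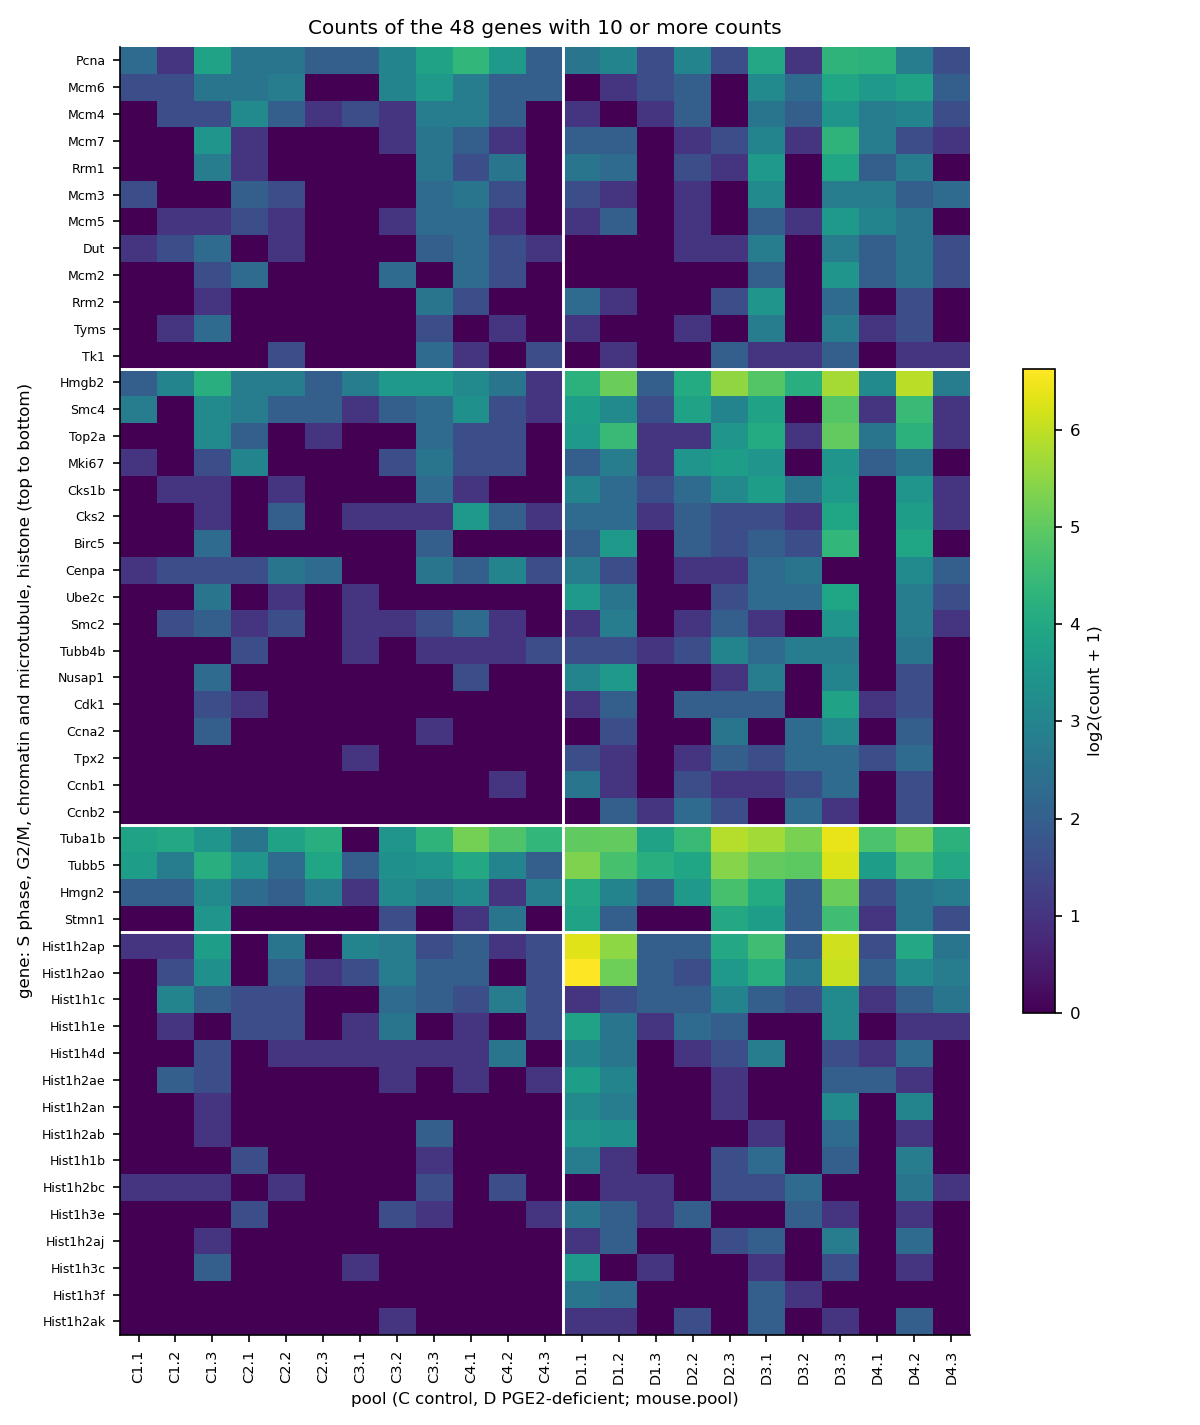
Counts of the 48 members with 10 or more counts (1 row each, in blocks of S phase, G2/M, chromatin and microtubule, and histone genes) in the 12 control pools (C) and 11 PGE2-deficient pools (D), coloured by log2(count + 1) with no scaling for depth. Top2a has 0 to 8 counts in control pools and 1 to 32 in the others, and Hist1h2ap and Hist1h2ao reach 78 and 98 in PGE2-deficient mouse 1 pool 1.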

How the data were processed

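The authors deposited raw counts in 1 table, as whole numbers for each gene in each library. Reads were aligned with STAR 2.5.4b to GRCm38 (mm10), per the submitters' processing notes. The sources used here name neither the counting program nor the annotation and do not say whether reads or molecules were counted, so intervals and floors cover counting error only. Libraries of a mouse, technical replicates per the labels, were summed (4 mice against 4, PGE2-deficient mouse 2 with 2 libraries). edgeR 4.0.16 was run with TMM scaling on the 2076 genes, holding 80.6% of all counts, that passed filterByExpr at a minimum count of 10. Its two-sided quasi-likelihood test was adjusted by Benjamini-Hochberg over those genes (threshold 0.05), and biological variation between mice came to a common coefficient of 21.8%. CPM divide counts by TMM-scaled totals of those genes, and each standard error was derived from the F statistic and the fold change. The scripts were tested on simulated data. Alternatives were other scalings, count filters, DESeq2 1.42.0, robust dispersion, limma-voom (limma 3.58.1), a mouse-number block, thinning and left-out mice or pools. The members and all lists were chosen with earlier results of these data known. Named were all tested members, up to 3 untested ones per group with the most counts, those at 0 in 1 group with 10 or more counts in the other, and for other lists the genes with the smallest p or, for markers, the most counts. Cenpa, Tpx2, Ube2c, Kif23, Racgap1 and Hist1h2an were named after their values were seen. Promoters came from RefSeq (GRCm38.p6), positions and transcripts from GENCODE M21. R 4.3.3, Python 3.11.15 and matplotlib 3.10.9 were used.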

Additional observations from a re-analysis of the deposited data

Results flagged for a closer look

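Each tested member and the summed groups were examined in each group of 4 mice for a mouse far from the other 3, 34 checks in all, of which chance gives about 5%. Top2a in control mouse 1, at 92.0 CPM, lay apart from the other control mice at 31.4 to 40.1 CPM, and all of its 8 counts were in pool 3, the control pool with the highest G2/M, S phase and histone levels. Mcm6 in control mouse 3, at 181 CPM, lay apart from the other control mice at 94.1 to 104 CPM.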

How the results depend on the processing

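The 7 members called higher became 13 with no count filter, 4 with limma-voom, 0 without pools holding 10 or more marker counts of other cells and 1 without pools holding 3 or more T and NK marker counts. Leaving out 1 mouse gave 6 to 9. No member was called lower in any of these fits. In alternatives chosen after seeing the data, the count was 4 without PGE2-deficient mouse 4 pool 2 and 2 without mouse 1 pool 1, mouse 3 pool 3 and mouse 4 pool 2 together. Fewer mice, pools and tested genes entered the fits with pools left out, and for the others the cause was not tested. The log2 ratio of summed G2/M levels fell from 1.57 to 1.12 without those 3 pools, and that of S phase genes moved from 0.11 to 1.08 without the pools with 10 or more marker counts. Genes near 0 changed sign: Mcm6 to 0.028 under total-count scaling and between -0.63 and 0.20 without 1 mouse, Mcm4 between -0.29 and 0.15 without 1 mouse, and Pcna to 0.39, Cdkn1a to 0.016 and Anp32e to -0.022 without the pools with 10 or more marker counts. Over all genes, 56 higher and 47 lower calls became 45 and 67 with upper quartile factors, 70 and 24 with total counts, 32 and 25 at a minimum count of 20, 110 and 84 with no filter, 62 and 79 with limma-voom, 32 and 19 with technical replicates 2 and 3 alone, 37 and 21 after thinning, 11 and 8 or 44 and 16 without the 2 sets of pools with marker counts, and 31 to 67 and 23 to 45 without 1 mouse. Mouse numbers recur in both groups but were not taken as pairs, since deviations of same-numbered mice correlated by -0.0893 to 0.10 and 1 of 4 correlated best with its own number. With the mouse number as a replicate block 6 members were called, Tuba1b losing its call (0.97, adjusted p = 0.0510), and all genes gave 45 higher and 28 lower calls. Depth limits most members: 1 count was worth 5.10 to 11.9 CPM in a mouse.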

Other observations

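Maturation genes of dendritic cells, which rise when these cells leave the tissue for lymph nodes, differed widely among the pools with the most G2/M counts. The 18 genes of the list include Ccr7, the homing receptor, Ccl5, a T cell chemokine, and Cd83, and they summed to 480 to 5369 CPM in control pools and to 1266 to 13031 CPM in PGE2-deficient pools. The sum leaned on Ccl5, with 11 of 1313 counts in control mice and 840 of 2922 in PGE2-deficient mice. By edgeR 3 of the 11 tested rose, Ccl5, Il12b and Cacnb3, and 0 fell, against 2.7% and 2.26% of all tested genes. Ccr7 (0.45 ± 0.31, adjusted p = 0.489) and Cd83 (-0.43 ± 0.18, adjusted p = 0.203) were not called. Of the 5 PGE2-deficient pools above all control pools in G2/M genes, mouse 2 pool 3 had the highest maturation level of all pools at 13031 CPM, and mouse 1 pools 1 and 2 had 8951 and 5016 CPM. Mouse 3 pool 3 and mouse 4 pool 2, which held the most T and NK marker counts of all pools, had the lowest maturation levels of their group at 1304 and 1266 CPM. The cDC1 markers of these 5 pools summed to 5481 to 10417 CPM, the range over all 11 PGE2-deficient pools.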
